A study of Mus musculus and Sus scrofa with 18 samples.

Results

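Genes for 10 sensors of foreign or misplaced nucleic acid were followed across the striatum of 9 mice that all received adeno-associated virus (AAV), the vector that carries the treatment. They were listed by name, as sensors of the kind of nucleic acid that a viral vector brings into brain cells, at a time when earlier results of these data were known, so their shares below are a description. The 10 genes are Ddx58, Ifih1, Dhx58, Zbp1, Cgas, Tmem173, Tlr3, Tlr7, Tlr9 and Eif2ak2, out of 55357 genes in the mouse count table, and all 10 were found and passed the filter on low counts. The study delivered CasRx, an RNA-cutting CRISPR enzyme, and guide RNAs (gRNAs) against huntingtin (HTT) mRNA to Huntington disease (HD) knock-in animals, and it asked of gene expression whether lowering HTT mRNA returned dysregulated genes towards wild type (WT). Into the 3 WT mice went AAV9-Ctrl gRNA alone, without the enzyme. The 3 HD untreated mice, heterozygous HD 140Q-KI animals, received AAV9-CasRx together with AAV9-Ctrl gRNA. The 3 HD treated mice, of the same genotype, received AAV9-CasRx with AAVs for the HTT gRNAs. The animals were injected into the striatum at 6 months of age and the tissue was taken 1.5 months later. In the vectors, the CAG promoter drove CasRx, the U6 promoter drove the gRNAs, and GFP was carried with the gRNAs. WT mice therefore differed from HD untreated mice both in the knock-in allele and in the CasRx vector, and no group was free of AAV, so the parts of genotype, enzyme and vector in any difference from WT cannot be told apart.

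The sensors fall into a few families. RIG-I (Ddx58) and MDA5 (Ifih1) are cytosolic helicases that bind viral-type RNA and signal through the adaptor MAVS, and LGP2 (Dhx58) is their relative without a signalling domain, which tunes them. PKR (Eif2ak2) is a kinase that binds double-stranded RNA and halts translation by phosphorylating the initiation factor eIF2, and ZBP1 binds left-handed Z-form nucleic acid and can start necroptosis, a form of cell death. cGAS (Cgas) binds cytosolic DNA and makes a cyclic dinucleotide that switches on STING, which the count table names Tmem173. TLR3, TLR7 and TLR9 sit in endosomes and respond to double-stranded RNA, single-stranded RNA and unmethylated CpG DNA, respectively, and the AAV genome is itself single-stranded DNA. Most of these routes lead to type I interferon, and many of the sensor genes are themselves known targets of interferon.

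The bases around the start sites of the sensor genes were looked at as a description. RefSeq promoter windows of 300 bases (250 before and 50 after the start, GRCm38.p6) were at hand for 6 of the 10 genes, namely Ddx58, Ifih1, Cgas, Tlr3, Tlr9 and Eif2ak2. They were searched on both strands for the core of the interferon-stimulated response element, GAAA followed by any 2 bases and a second GAAA, and for the gamma-activated site, TTCNNNGAA, 2 motifs bound by interferon-activated transcription factors. The first motif was present in the windows of Ddx58, Ifih1 and Eif2ak2, that is 3 of 6 genes, against 3.99% of the 27025 genes in the promoter table. It was also present in 8 of the 13 genes (61.5%) of a list of interferon-stimulated genes that had a window. In all 3 sensors it lay just downstream of the start, beginning at base 3 in Ddx58, base 33 in Ifih1 and base 19 in Eif2ak2, counted with the start as base 1. The sites are shown in 30 bases each, 5′ to 3′ on the strand of the gene, with the motif in capitals; that of Ddx58 reads on the opposite strand. They span chr4:40239804-40239833, chr2:62646206-62646235 and chr17:78882535-78882564, all on the minus strand.
Ddx58: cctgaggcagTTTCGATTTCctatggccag
Ifih1: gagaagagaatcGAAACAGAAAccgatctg
Eif2ak2: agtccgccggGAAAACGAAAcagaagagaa
The gamma-activated site was found in 1 of the 6 genes, Eif2ak2, against 9.55% of all genes in the table, and started 178 bases before the start. The 250 bases ahead of the start of that gene, at chr17:78882573-78882822 on the minus strand, are given with the site in capitals.
Eif2ak2: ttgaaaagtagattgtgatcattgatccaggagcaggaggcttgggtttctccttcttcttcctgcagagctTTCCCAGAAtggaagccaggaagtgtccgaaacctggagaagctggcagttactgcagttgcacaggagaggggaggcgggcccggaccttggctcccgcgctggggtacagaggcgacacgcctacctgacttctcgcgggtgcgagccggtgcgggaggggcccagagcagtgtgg
The windows of Cgas, Tlr3 and Tlr9 held neither motif. A match of letters describes the sequence and was not tested for binding or for a role in these mice. The sensors were listed with earlier results known, and many are known targets of interferon, so the motif shares are a description.

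The 9 libraries held 27184356 to 32102121 counts each, so that 3 counts, used as the floor of detection, equalled about 0.1 CPM in each of them; CPM are counts scaled to library size, with trimmed mean of M values factors. Htt, the targeted gene, was at 187 ± 4.81 CPM in WT, 145 ± 4.62 in HD untreated and 135 ± 4.65 in HD treated mice (SD, n = 3 per group). The difference was -0.37 log2 units for untreated against WT mice (edgeR adjusted p = 0.00656). For treated against untreated mice it was -0.10 (edgeR adjusted p = 0.942). The count does not separate the knock-in allele, whose human exon 1 the gRNAs target, from the other allele. The paper reports lower mutant HTT mRNA in treated mice by RT-qPCR. Y-linked genes were counted in the 3 WT mice and in HD untreated replicate 1 (3435 to 5005 counts per mouse) and were at 0 in the other 5 mice, so all treated mice and 2 of 3 untreated mice differed from WT in sex as well. HD untreated replicate 3 stood apart in immune genes. Values with and without these mice are given below.

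Of the RIG-I-like receptors, Ddx58 and Ifih1 were called higher than WT in both HD groups and Dhx58 in HD untreated mice. Ddx58 (ENSMUSG00000040296, chromosome 4) was at 4.87, 4.77 and 4.05 CPM in the WT mice, at 10.3, 12.4 and 27.2 in the untreated mice and at 9.74, 10.9 and 24.8 in the treated mice, replicates 1 to 3 in order. Every HD mouse was above every WT mouse, and replicate 3 of each HD group was more than 2-fold above its group mates. Against WT, Ddx58 rose by 1.86 log2 units in untreated mice (SE 0.44, edgeR adjusted p = 0.0299) and by 1.73 in treated mice (SE 0.44, edgeR adjusted p = 0.0614).

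Ifih1 (ENSMUSG00000026896, chromosome 2) behaved alike. It was at 3.78, 3.63 and 3.26 CPM in WT, 10, 11.4 and 25.3 in the untreated group and 9.22, 10.5 and 21.0 in treated mice. The lowest HD mouse was thus more than 2-fold above the highest WT mouse. The change was 2.13 log2 units in untreated mice (SE 0.41, edgeR adjusted p = 0.0150) and 1.93 in treated mice (SE 0.41, edgeR adjusted p = 0.0369), and this was the only one of the 10 genes with an adjusted p under 0.05 in both comparisons with WT.

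Dhx58 (ENSMUSG00000017830, chromosome 11) was at 1.78, 1.95 and 2.46 CPM in WT, 4.28, 3.09 and 12.2 in the untreated group and 3.19, 2.93 and 7.98 in treated mice. The HD mice lay above WT without overlap, but by little in replicate 2 of both groups. In untreated mice it rose by 1.66 log2 units (SE 0.55, edgeR adjusted p = 0.0848), whereas in treated mice the difference of 1.19 (SE 0.55, edgeR adjusted p = 0.252) did not reach an unadjusted P of 0.05. That missed call was not stable, as Dhx58 was called in treated mice under 8 of 17 alternative settings, DESeq2 among them.

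PKR and ZBP1, the sensors tied to translation arrest and cell death, showed the next set of values. Eif2ak2 (ENSMUSG00000024079, chromosome 17) was at 4.68, 5.03 and 5.75 CPM in WT, 8.81, 15.4 and 29.3 in the untreated group and 11.7, 10.6 and 23.1 in treated mice. All HD mice were above all WT mice. It rose by 1.79 log2 units in untreated (SE 0.43, edgeR adjusted p = 0.0322) and by 1.55 in treated mice (SE 0.43, edgeR adjusted p = 0.0797).

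Zbp1 (ENSMUSG00000027514, chromosome 2) was barely detected in WT, with 3, 20 and 6 counts (0.113, 0.734 and 0.199 CPM), the first of them at the floor. It reached 1.68, 6.05 and 37.6 CPM in untreated and 2.45, 3.82 and 22.3 CPM in treated mice. Only 1 WT mouse was above the filter on low counts (0.341 CPM), so the gene was tested through its level in the HD mice, and its difference from WT is given as a description. The HD mice were themselves far apart, with HD untreated replicate 3 at 9.73 times the mean of its 2 group mates and HD treated replicate 3 at 7.10 times. The difference was 5.43 log2 units in untreated (SE 1.42, edgeR adjusted p = 0.0410) and 4.76 in treated mice (SE 1.40, edgeR adjusted p = 0.0947).

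The DNA-sensing pair differed less. Cgas (ENSMUSG00000032344, chromosome 9) was at 0.944, 0.991 and 1.46 CPM in WT, 1.40, 1.18 and 2.31 in the untreated group and 2.39, 2.50 and 2.04 in treated mice. Untreated mice overlapped WT, and treated mice lay above WT. The difference of 0.52 log2 units in untreated mice (SE 0.31, edgeR adjusted p = 0.297) did not pass, and in treated mice Cgas rose by 1.02 (SE 0.30, edgeR adjusted p = 0.0966), just past 2-fold, a call lost under 5 of 17 alternative settings. Cgas was the one sensor whose highest mouse was not HD untreated replicate 3.

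Tmem173 (ENSMUSG00000024349, chromosome 18) was at 3.59, 2.97 and 2.89 CPM in WT, 2.70, 4.63 and 10.4 in the untreated group and 5.12, 5.40 and 7.95 in treated mice. HD untreated replicate 1 was below every WT mouse. The differences of 0.91 log2 units in untreated (SE 0.42, edgeR adjusted p = 0.192) and 0.97 in treated mice (SE 0.42, edgeR adjusted p = 0.224) were under 2-fold.

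Of the endosomal Toll-like receptors, only Tlr9 met the definition of a changed gene. Tlr9 (ENSMUSG00000045322, chromosome 9), the CpG DNA sensor, was at 1.59, 1.28 and 0.931 CPM in WT, 1.65, 2.92 and 6.49 in the untreated group and 2.51, 2.83 and 3.97 in treated mice. HD untreated replicate 1 was next to the highest WT mouse. It rose by 1.54 log2 units in untreated (SE 0.46, edgeR adjusted p = 0.0633) and by 1.29 in treated mice (SE 0.46, edgeR adjusted p = 0.149).

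Tlr3 (ENSMUSG00000031639, chromosome 8) was at 11.1, 8.96 and 12.2 CPM in WT, 12.6, 16.2 and 22.9 in the untreated group and 14.7, 15.7 and 21.8 in treated mice. The HD mice began where the WT mice ended. The differences were 0.68 (SE 0.23, edgeR adjusted p = 0.0930) and 0.70 log2 units (SE 0.23, edgeR adjusted p = 0.130), both under 2-fold. Tlr7 (ENSMUSG00000044583, chromosome X) was at 2.76, 3.23 and 3.82 CPM in WT, 4.21, 4.20 and 8.26 in the untreated group and 4.41, 4.35 and 5.62 in treated mice. The gene is X-linked. HD untreated replicate 1, with Y-linked counts, was at 4.21 CPM, and replicates 2 and 3, without them, at 4.20 and 8.26. The part of sex in these values was not tested. The Tlr7 differences of 0.76 (SE 0.28, edgeR adjusted p = 0.113) and 0.55 log2 units (SE 0.28, edgeR adjusted p = 0.299) did not pass.

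**Figure D1:**
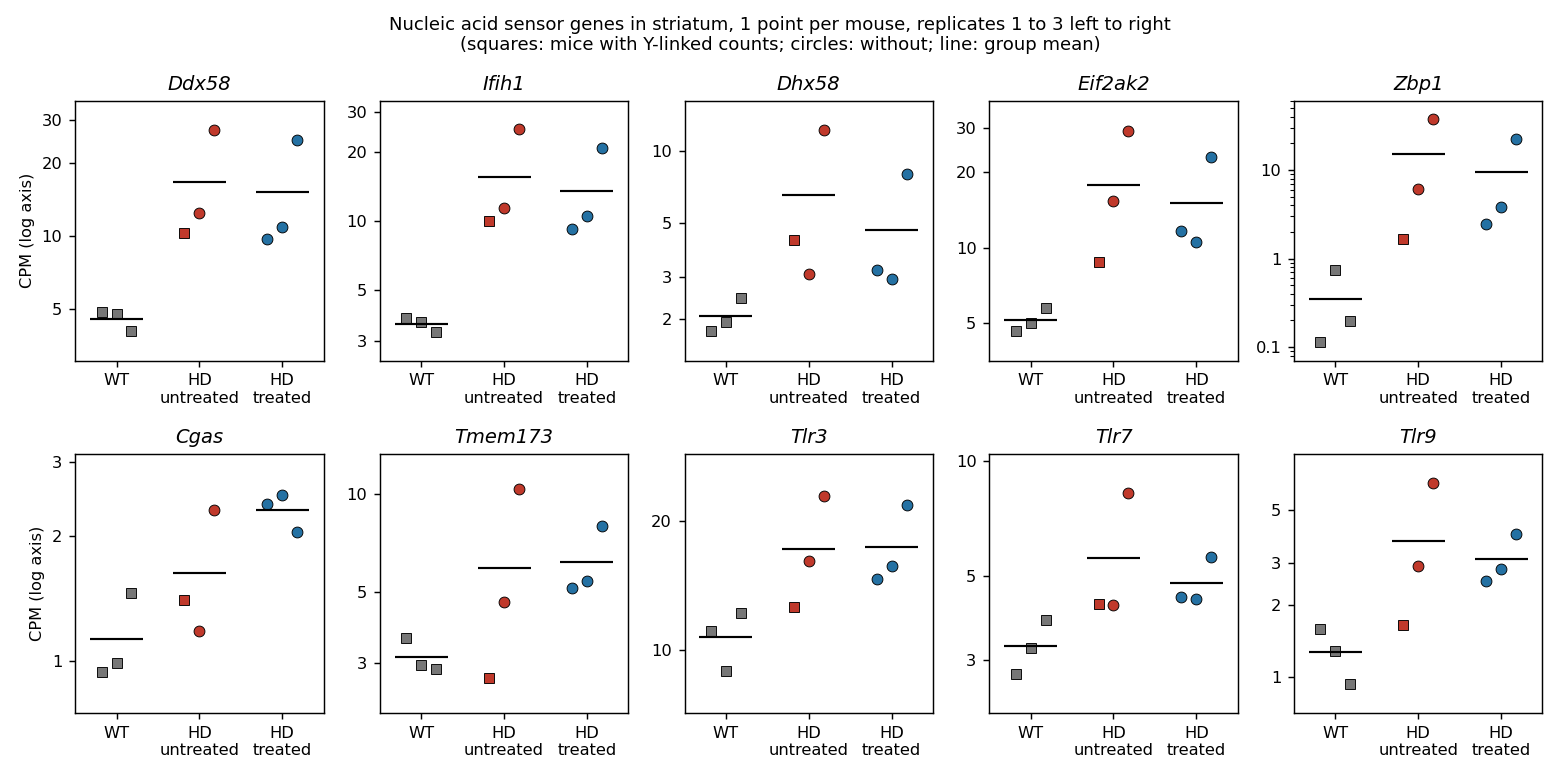
Level of each sensor gene in each mouse (CPM, log axis), with replicates 1 to 3 from left to right in each group, squares for mice with Y-linked counts, circles for mice without, and a line at the group mean. Every HD mouse lies above every WT mouse for all sensors but Cgas and Tmem173, though HD untreated replicate 1 does so by little for Tlr3 and Tlr9. For Cgas, HD untreated replicates 1 and 2 fall among the WT mice, and for Tmem173, HD untreated replicate 1 falls below them.

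By the definition used, an unadjusted P under 0.05 and a change of at least 2-fold, 6 of the 10 sensors were higher in HD untreated than in WT mice (Ddx58, Ifih1, Dhx58, Eif2ak2, Zbp1 and Tlr9), where 5.57% of all 19463 tested genes were called higher. At an adjusted p under 0.05 there were 4 of 10, against 4.58% of all genes. The 2 groups did not overlap for 8 of 10 sensors, against 15.0% of all genes. Leaving out Zbp1, these counts were 5, 3 and 7 of 9. In HD treated against WT mice 6 of 10 were again higher (Cgas in place of Dhx58), against 3.84% of all genes, but 1 of 10 at an adjusted p under 0.05, against 0.904%. The groups were apart for each of the 10 sensors, against 13.4% of all genes. Leaving out Zbp1, these counts were 5, 1 and 9 of 9. At an unadjusted P under 0.01 with 2-fold, 5 of 10 were higher in each HD group, Dhx58 being lost in untreated and Tlr9 in treated mice, against 3.11% and 1.85% of all genes. No sensor was lower in either comparison, against 2.58% and 1.38% of all genes, and the median difference of the 10 was 1.60 log2 units in untreated and 1.24 in treated mice (1.54 and 1.19 without Zbp1), where that of all tested genes was 0.02 and 0.00. Both comparisons use the same 3 WT mice.

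**Figure D2:**
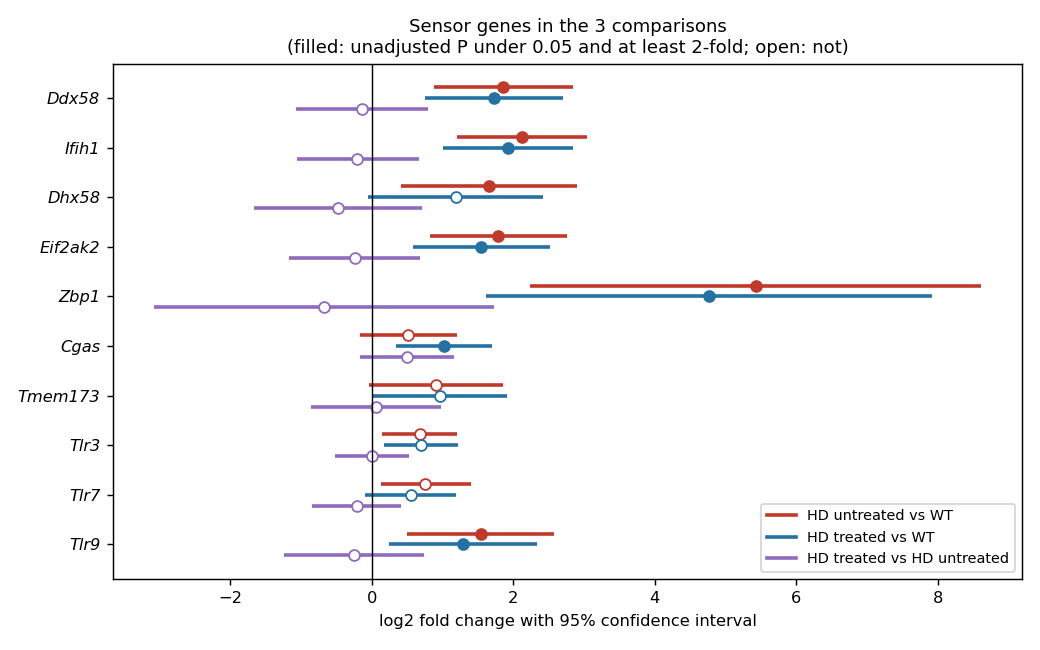
Log2 fold change of each sensor with its 95% confidence interval for the 3 comparisons; filled points met an unadjusted P under 0.05 and at least 2-fold. The differences from WT lie between 0.52 and 5.43, whereas all 10 intervals for HD treated against HD untreated cross 0.

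Between HD treated and HD untreated mice, the comparison that bears on the HTT gRNAs themselves, no sensor met the definition, where 0.360% of all genes were called higher and 0.411% lower. The groups overlapped for all 10 genes. Overlap was the usual case, as 6.92% of all genes lay wholly higher and 8.83% wholly lower in treated mice. By edgeR, 0 of 10 had an unadjusted P under 0.05, against 5.50% of all genes, and DESeq2 also called 0 by the same definition. The differences ran from -0.67 log2 units for Zbp1 to 0.50 for Cgas, with 3 above 0 and 7 below. Cgas had the smallest unadjusted P, 0.124 (edgeR, adjusted p = 0.932), with 2 of the 3 treated mice above every untreated mouse. The intervals were wide, with 95% limits of -1.07 to 0.80 log2 units for Ddx58, -1.06 to 0.67 for Ifih1 and -3.07 to 1.73 for Zbp1. Differences within these limits were not excluded with 3 mice per group, and a missed threshold does not show equal levels. An exact permutation test of 3 against 3 mice cannot give a p below 0.1, and it gave 0.2 to 1.0 over the 10 genes.

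The rise over WT was uneven among the HD mice. Averaged over the 10 sensors, the level was 0.79, 1.22 and 2.47 log2 units above the WT mean in untreated replicates 1 to 3 and 1.08, 1.19 and 2.07 in treated replicates 1 to 3. Zbp1, tested through its level in the HD mice, is in this mean and was the highest of the 10 in each HD mouse. It was at 2.37, 4.17 and 6.8 in the untreated group and 2.9, 3.52 and 6.04 in treated mice, so the mean is a description. Without HD untreated replicate 3, 4 sensors, Zbp1 among them, were called in untreated mice, against 3.70% of all genes. The difference from WT was 1.31 for Ddx58, 1.59 for Ifih1, 1.23 for Eif2ak2 and 3.46 for Zbp1. Dhx58 (0.83, edgeR adjusted p = 0.277) and Tlr9 (0.85, edgeR adjusted p = 0.178) were no longer called. Without HD treated replicate 3, 5 sensors, Zbp1 among them, were called in treated mice, against 3.10% of all genes, Tlr9 being lost (1.08, edgeR adjusted p = 0.337).

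Sex was tied to group, and fewer sensors were called with a measure of it in the fit. The share of all genes called higher fell too, from 5.57% in untreated and 3.84% in treated mice. The part of sex in the lost calls was not tested. With the share of Y-linked counts as a covariate over all 9 mice, a measure that largely follows the groups, 2 sensors were called in untreated mice, Ddx58 (1.29, edgeR adjusted p = 0.196) and Ifih1 (1.60, edgeR adjusted p = 0.109), against 2.98% of all genes, and 0 in treated mice, against 1.41%. In that fit Zbp1 was at 2.73 and Eif2ak2 at 0.96 above WT in untreated mice, and Ifih1 at 1.17 and Ddx58 at 0.91 in treated mice. A single HD mouse, untreated replicate 1, had Y-linked counts like the 3 WT mice, so a difference within that sex has no HD spread and is given without a test. It was 1.19 for Ddx58, 1.5 for Ifih1, 1.06 for Dhx58, 2.28 for Zbp1, 0.78 for Eif2ak2, 0.40 for Tlr9 and -0.21 for Tmem173. Treated mice and WT mice did not share a sex, so sex and group cannot be told apart there. Among the 5 mice without Y-linked counts, treated against untreated, 0 of 10 sensors were called, where 91 of 19570 tested genes were called higher and 146 lower. With so few genes called, 0 of 10 does not show equal levels. The sensor differences ran from -1.18 for Zbp1 to 0.42 for Cgas.

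**Figure D3:**
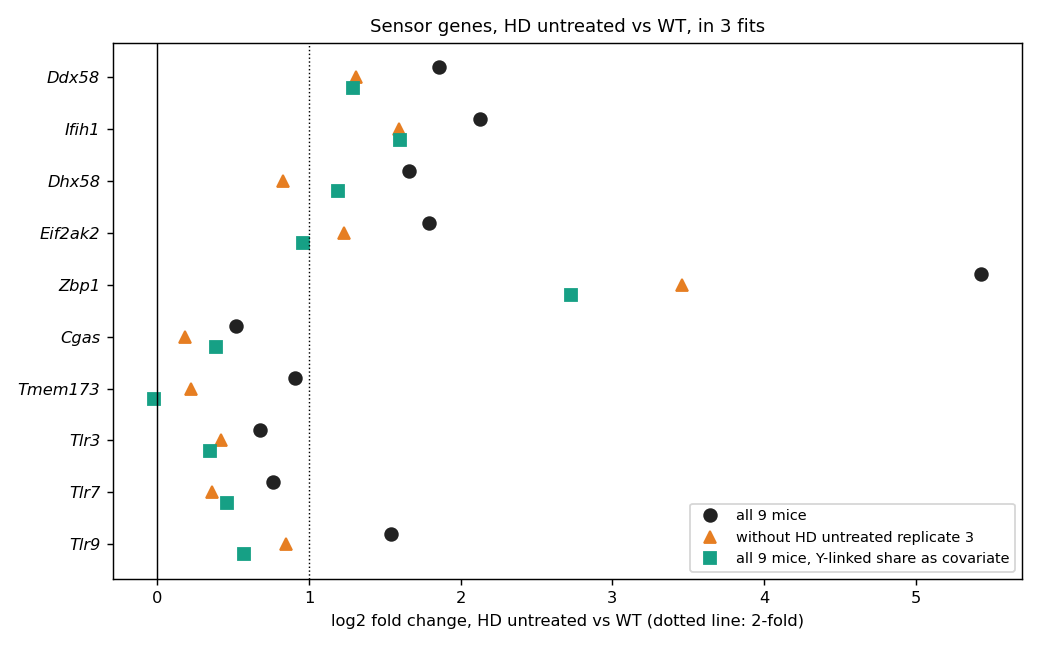
Log2 fold change of each sensor in HD untreated against WT mice with all 9 mice in the fit (circles), without HD untreated replicate 3 (triangles) and with the share of Y-linked counts as a covariate (squares); the dotted line marks 2-fold. All 10 genes lie further left as triangles and as squares than as circles, Eif2ak2 falling to 1.23 and 0.96 and Tlr9 to 0.85 and 0.57.

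The remaining genes of these routes were followed in lists of 113 tested genes. Over all tested genes, 5.57% were called higher in untreated and 3.84% in treated mice. Some list genes, like Zbp1, passed the filter on low counts only through the HD mice, so the counts of called genes are a description. Of 28 other sensors of nucleic acid, 18 were higher in untreated and 16 in treated mice. They included Ddx60, a helicase that aids RIG-I, at 4.21 log2 units above WT in untreated and 3.98 in treated mice (edgeR adjusted p = 0.00769 and 0.0162), Ifi204, a cytosolic DNA sensor of the Ifi200 family, at 4.90 and 4.41 (edgeR adjusted p = 0.0165 and 0.0405), and Zc3hav1, which binds CpG-rich viral RNA, at 1.95 and 1.91 (edgeR adjusted p = 0.0125 and 0.0225). In WT mice Ddx60 had 18, 4 and 23 counts and Ifi204 had 8, 10 and 4. Both thus passed the filter through the HD mice, and their differences from WT are a description. Members of the Ifi200 and Oas1 families are close copies of each other, and counting may have split reads among them. Of 5 Toll-like receptors of the cell surface, which mostly sense microbial lipids and proteins, 3 were higher in untreated mice and 1 in treated mice, Tlr2 leading (2.52 and 1.98, edgeR adjusted p = 0.0422 and 0.125).

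Most genes of the steps directly below the sensors were not called, although the shares called higher were above those of all tested genes. The latter were 5.57% in untreated and 3.84% in treated mice. Of 17 adaptors and trafficking genes, 3 were higher in each HD group, namely Trim25, the ligase that activates RIG-I (1.49 and 1.23, edgeR adjusted p = 0.0346 and 0.0984), Unc93b1, which carries the endosomal receptors to their place (1.33 and 1.25, edgeR adjusted p = 0.0601 and 0.109), and Slc15a3, a peptide and histidine transporter of endolysosomes. Myd88, the adaptor of TLR7 and TLR9, differed by 0.81 and 0.68 (edgeR adjusted p = 0.0702 and 0.159), under 2-fold. The adaptors of the other sensors did not pass either: Mavs, for RIG-I and MDA5, differed by -0.16 and -0.11 log2 units, and Ticam1, for TLR3, by -0.26 and -0.02. These last 2 and Slc15a3 were named after their values were seen. Of 14 kinases and transcription factors, 3 were higher in untreated and 2 in treated mice. Irf7, the interferon-inducible driver of type I interferon genes, led with 4.59 and 3.66 (edgeR adjusted p = 0.0246 and 0.0764), followed by Irf1 (2.44 and 1.97, edgeR adjusted p = 0.0711 and 0.172) and, in untreated mice, Irf5 (1.15, edgeR adjusted p = 0.113).

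For the next 2 lists, the shares of all tested genes called higher were again 5.57% in untreated and 3.84% in treated mice. Among 8 tested genes downstream of PKR and ZBP1, 1 was higher in each HD group, the necroptosis effector Mlkl (3.05 and 2.40, edgeR adjusted p = 0.0380 and 0.120). It was low throughout, at 4, 5 and 7 counts in WT, 16, 19 and 106 in the untreated group and 29, 22 and 45 in treated mice. Mlkl too passed the filter on low counts through the HD mice, and its difference from WT is a description. Fadd (0.57 and 0.65) and Casp8 (0.50 in untreated mice), which take part in death receptor signalling, did not pass. Of 11 tested nucleases and brakes, the genes that clear stray nucleic acid or its signals, 1 was higher in untreated and 0 in treated mice, where edgeR gave Isg20, an exonuclease, 2.27 and 1.38 log2 units (adjusted p = 0.0466 and 0.234). Counts of 1 and 0 of 11 are near the shares of all tested genes, and nothing is concluded from them. Samhd1 had an unadjusted P under 0.05 in untreated mice but a change under 2-fold (0.73).

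Interferon genes themselves were next to undetected. Of 20 listed, 16 had no count in any mouse, and 0 could be tested. Ifnb1 had 2 counts in HD untreated replicate 1 and 2 in HD treated replicate 3, Ifnk 2 in HD untreated replicate 3, and Ifne 2 in WT replicate 1 and 1 in HD treated replicate 1. All type I and type III interferon genes together came to 0 to 2 counts per mouse, under the floor of 3. Ifng, the type II interferon made mainly by T and natural killer cells, had 0 counts in all WT mice. Its counts were 0, 4 and 20 in the untreated group and 3, 2 and 3 in the treated group. At this depth a low or brief production of type I interferon would not have been detectable.

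Interferon-stimulated genes were nonetheless called in both HD groups. Of 18 interferon-stimulated genes, 17 were higher in untreated and 17 in treated mice, with medians of 2.83 and 2.49 log2 units. Mx1, an antiviral GTPase, had 3, 2 and 6 counts in WT, 63, 76 and 436 in the untreated group and 53, 62 and 238 in treated mice (5.60 and 4.81, edgeR adjusted p = 0.0150 and 0.0437). Rtp4 differed by 3.47 in untreated mice (edgeR adjusted p = 0.0190). Cxcl10, a chemokine that draws T cells, had 2, 4 and 0 counts in WT mice. It had 92, 128 and 952 counts in the untreated group and 129, 118 and 817 in the treated group. Mx1 and Cxcl10, like Zbp1, passed the filter on low counts through the HD mice, and their differences from WT are a description. Of 12 receptor and signalling genes, 5 were higher in untreated and 3 in treated mice, among them Usp18 (3.75 and 3.36, edgeR adjusted p = 0.0131 and 0.0330), which dampens interferon signalling. Ifngr2, a chain of the type II interferon receptor, was 0.94 above WT in untreated mice (edgeR adjusted p = 0.00193), just under 2-fold. Pooled, 51 of 113 pathway genes were higher in untreated and 43 in treated mice, against 5.57% and 3.84% of all genes. By the definition 0 were lower, against 2.58% and 1.38%. At an edgeR adjusted p under 0.05, 36 and 8 were higher, against 4.58% and 0.904% of all genes. In untreated mice 1 was lower at that limit (the RNA helicase Dhx9, -0.31, named after its value was seen). Between treated and untreated mice edgeR and DESeq2 called 0, where edgeR called 0.360% of all genes higher and 0.411% lower. That count was not stable: without HD treated replicate 3 some pathway genes were called lower, as given below.

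Several immune cell markers moved with the sensors in the same mice, and in whole tissue more cells of a type cannot be told apart from more RNA per cell. Over all tested genes, 5.57% were called higher in untreated and 3.84% in treated mice, and 2.58% and 1.38% lower. Some markers, among them Ly6c2, Cd3d and Cd3g, passed the filter on low counts only through the HD mice, so the counts of called markers are a description. Summed over 12 microglia markers, the level was 376 to 407 CPM in WT, 421 to 807 in the untreated group and 536 to 627 in treated mice, with 1 gene of 12 called higher in untreated and 2 in treated mice. The 10 monocyte and macrophage markers summed to 13.1 to 14.8 CPM in WT, 17.9 to 132 in the untreated group and 33.4 to 60.3 in treated mice, with 5 and 4 of 9 tested genes higher (Ly6c2 and Lyz2 among them) and Clec4e at 0 in all mice. In the same list Cd163, a scavenger receptor of resident macrophages, fell by 0.85 in untreated mice (edgeR adjusted p = 0.0201), short of 2-fold, with every untreated mouse below every WT mouse, and differed by -0.11 in treated mice. F13a1 was at -0.73 and -0.84 (edgeR adjusted p = 0.610 and 0.605). Of 12 T cell markers 11 were higher in untreated and 7 in treated mice. Their sum without Cd4, which was set aside after it was seen to fall with the neuronal markers, was 1.78 to 2.66 CPM in WT, 5.72, 12.4 and 87.3 in the untreated group and 7.60, 12.1 and 23.1 in treated mice, and Cd3d and Cd3g were at 0 in WT. B and plasma cell markers summed to 3.39 to 5.54 CPM in WT, 10.8 to 104 in the untreated group and 61.7 to 125 in treated mice, with 3 and 4 of 5 tested genes higher.

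HD untreated replicate 3 held the highest value of the microglia, monocyte and T cell sums as well as of 9 of the 10 sensors. HD treated replicate 3, the highest treated mouse for 9 sensors, was not the highest treated mouse for microglia, monocyte or B cell sums, but was for T cells. The part of these cells in the sensor levels was not tested. Markers of plasmacytoid dendritic cells, which are known for Tlr7, Tlr9 and high interferon output, summed to 456 to 564 CPM in WT, 577 to 613 in the untreated group and 496 to 519 in treated mice, with 0 of 6 called in either HD group. That sum was carried by Pacsin1 (303 to 393 CPM per mouse) and Tcf4 (95.1 to 217 CPM), which neurons and other cells also express, and it says little of these cells. Ccr9, Klk1 and Spib were each under 1 CPM in all mice and Ly6d at 0 to 2.07 CPM, and Siglech is also on the microglia list. Astrocyte, oligodendrocyte and endothelial lists had at most 1 of 8 genes called higher in any comparison with WT, Gfap being the astrocyte gene. Markers of striatal projection neurons were abundant, as the label striatum implies, and 9 of 10 were called lower in untreated and 8 in treated mice, from sums of 6790 to 8790 CPM in WT to 2070 to 2450 in the untreated group and 3260 to 3290 in treated mice. Choroid plexus markers were at 3810 and 1230 CPM in WT replicates 2 and 3 and at 1290 CPM in HD treated replicate 3, and at 36.9 to 243 CPM in the other 6 mice, with 8 of 8 genes called lower in untreated mice.

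**Figure D4:**
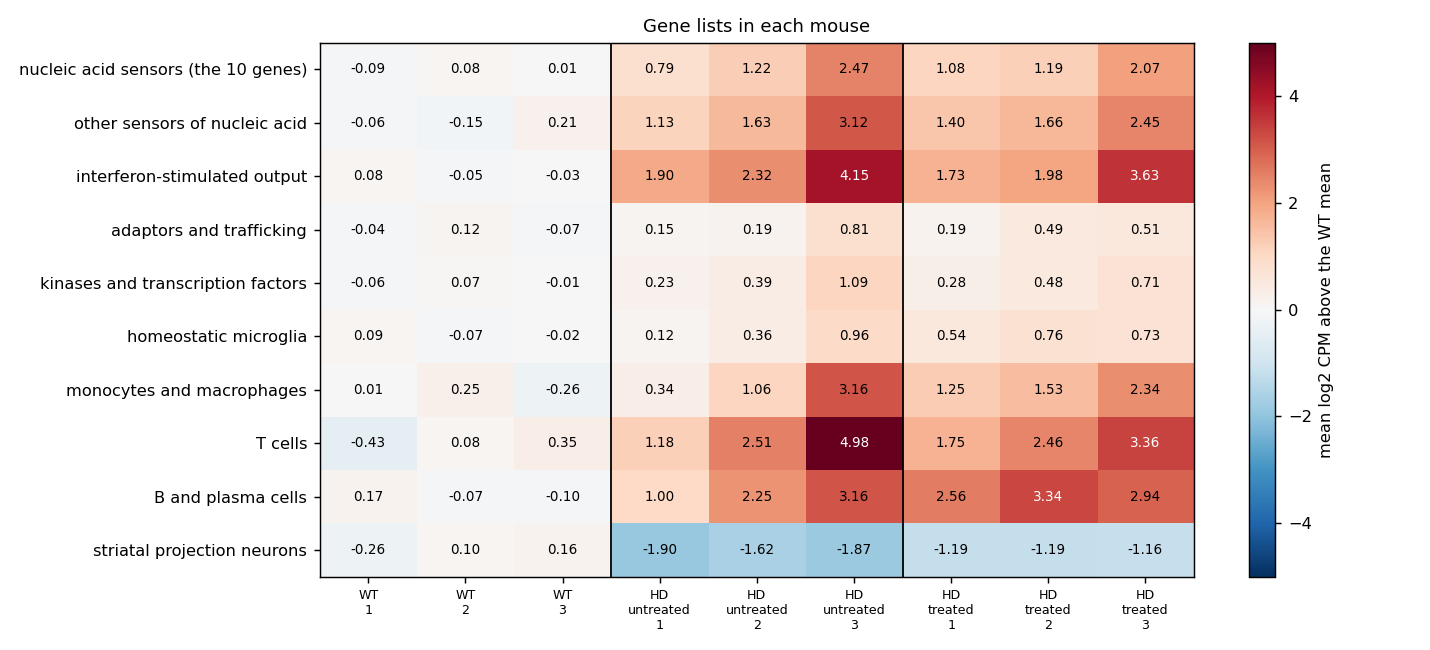
Mean log2 level of the tested genes of each list above the WT mean, for each mouse; red is above and blue below WT. The 10 sensors read 0.79, 1.22 and 2.47 in the untreated group and 1.08, 1.19 and 2.07 in treated mice, beside 1.90, 2.32 and 4.15 and 1.73, 1.98 and 3.63 for interferon-stimulated genes. The sensor mean includes Zbp1, which passed the filter on low counts through the HD mice.

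The genes whose profiles over the 9 mice lay nearest to each sensor, by the root mean square difference of log2 CPM after centring on WT, differed between the families. Nearest to Ddx58 were Herc6 (0.200 log2 units), Trim12c and Zc3hav1, to Ifih1 Zc3hav1 (0.172), Dtx3l and H2-M3, to Eif2ak2 Parp12, 9930111J21Rik1 and Sp100, to Zbp1 Nlrc5 (0.554), Gbp8 and Fcgr4, and to Dhx58 Ifitm3 (0.282), Tnfrsf9 and Tor3a. Nearest to Tlr9 were Itgb2, Pld4 and Fcer1g, to Tmem173 Pik3cg, Cyth4 and Nckap1l, to Tlr7 Cyp4v3, Il10rb and Elk3, to Tlr3 Nabp1, Brip1os and Thbs2, and to Cgas Tfpi, Enpp1 and Zfp991. These are the closest of all tested genes with a mean log2 CPM of at least 0, so a small distance was to be found for most profiles, and no test was made.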

How the data were processed

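Poly(A) RNA from the striatum of 9 mice was sequenced as 3′ tags, 3 mice per group. The authors deposited raw counts per gene. Their methods name STAR, whereas the submitters' notes list Trimmomatic 0.39, FastQC 0.11.9, HISAT2 2.2.1, Subread and featureCounts 2.0.1. The mouse build is not given in the sources used here, so only chromosomes are stated for genes. Gene IDs were named from GENCODE, and 94.1% matched. Genes passing filterByExpr (19463) were fitted with edgeR 4.0.16 (quasi-likelihood test, trimmed mean of M values scaling, all 9 mice, 6 residual degrees of freedom) and p-values were adjusted by Benjamini-Hochberg over all of them. Genes with an unadjusted P under 0.05 and at least 2-fold change were called, the definition given with the study's results, whereas its methods state P under 0.01, which was an alternative. Each SE is the fold change (log2) over the root of its F statistic, and log2 CPM used a prior count of 2. The fit was tested on simulated data. Total counts of 27184356 to 32102121 give counting error only; p-values cover the spread between the mice. The members and the lists were chosen with earlier results of these data known. All 10 members were named, plus the 3 genes with the smallest P in HD untreated against WT from each list and the 3 nearest profiles per member. Cell lists are given mainly by counts and sums, and some genes that this rule names are not reported here. Pyhin1 and Tasl were not matched and Ddit3, with more than 1 ID, was left out. Same-numbered mice were different animals and were not paired. Settings without both HD mice numbered 3 and within mice with or without Y-linked counts were added after seeing the data. The pig samples were not used. Tools were R 4.3.3, DESeq2 1.42.0, pandas 2.3.3 and scipy 1.17.1.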

Additional observations from a re-analysis of the deposited data

How the results depend on the processing

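Dhx58 gained a call in treated mice under 8 settings: library size scaling, DESeq2, the block, the 2 groups alone, and without HD untreated replicate 2 or 3 or HD treated replicate 1 or 2 (1.02 to 1.44). Over library size scaling, DESeq2, other filters, fits of the compared groups alone and fits without 1 mouse, no sensor turned its direction against WT. A Y-linked share as covariate, nearly the same thing as the group, left 2 sensors called in untreated and 0 in treated mice, and 23 and 5 pathway genes, where Tmem173 was at -0.02 and -0.29 and, in treated mice, Tlr9 at -0.03. Among mice with Y-linked counts, where HD untreated replicate 1 alone stood against the 3 WT mice, Tmem173 was at -0.21. The 31 pathway genes past the thresholds there rest on 1 HD mouse with no HD spread, and nothing is concluded from that count. At an adjusted p under 0.05, with or without 2-fold, 1 sensor was called in treated mice, and 8 pathway genes, or 7 with 2-fold. An unadjusted P under 0.01 gave 28 pathway genes there, and a minimum of 10 counts in every library 27; that filter left Zbp1 untested. Cgas in treated mice was not called without WT replicate 1 (0.90) or 2 (0.94) or HD treated replicate 1 (1.00) or 2 (0.97), and Tlr9 not without WT replicate 3 (1.12). The causes were not tested.

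Signs between treated and untreated mice were not stable. With 1 mouse left out, the differences ranged from -0.68 to 0.42 for Ddx58, -0.65 to 0.34 for Ifih1, -1.08 to 0.35 for Dhx58, -2.25 to 1.30 for Zbp1, -0.27 to 0.75 for Tmem173, -0.17 to 0.27 for Tlr3, -0.37 to 0.19 for Tlr7, -0.59 to 0.44 for Tlr9 and -0.66 to 0.32 for Eif2ak2. Cgas ranged from 0.32 to 0.84. The 0 pathway genes called became up to 11, all lower, without HD treated replicate 3. In that setting 67 of 19896 tested genes were called higher and 105 lower. With the Y-linked share as covariate Tmem173 was at -0.27 and Tlr3 at -0.14, and among mice without Y-linked counts at -0.27 and -0.15; without both HD mice numbered 3, Tlr7 was at 0.06 and Tlr9 at 0.22.

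With the replicate number as a block, 6 sensors were called in untreated (5.45% of all genes) and 7 in treated mice (4.05%), where Dhx58 was gained, and 0 between them, and 48, 47 and 0 pathway genes. The numbers did not pair the mice: deviations of same-numbered untreated and treated mice correlated at 0.191, -0.00304 and 0.236.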
